A study of Mus musculus with 43 samples.

Results

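DNA replication and the repair that accompanies it were followed here through 46 mouse genes, taken by their symbols from a list chosen with earlier results of these data known. All 46 were found among the 23951 gene symbols shared by the 3 deposited expression tables and among the 54307 gene rows of the 7 single-cell libraries. By role, 12 act in origin licensing and the replicative helicase, 5 are polymerase and primase subunits, 6 are the sliding clamp and its loader, 4 act on the lagging strand or bind single-stranded DNA, 3 supply nucleotides, 6 act on chromatin and DNA methylation behind the fork, 3 control entry into S phase and 7 act in repair.

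The series profiled intestinal organoids, which are three-dimensional cultures of intestinal epithelium, from wild-type C57BL/6 mice, and crypt cells sorted from mice. Bulk RNA-seq compared transforming growth factor beta 1 (TGFB1, 2 ng/mL) with vehicle, each given on day 6 for 24 h, in 3 conditions of 3 libraries a group: organoids collected on day 7 without irradiation (D7 non-IR), organoids collected on day 7 after 4 Gy on day 4 (D7 IR), and organoids given the same 4 Gy and collected on day 11 (D11 IR). A single-cell time course sampled irradiated day 8 organoids (4 Gy on day 4) after 0, 6, 15 and 24 h with 1 ng/mL TGFB1, with 1 library a time. Cells positive for Ki67-RFP, a red fluorescent reporter at the locus of the proliferation marker Ki67, were sorted from crypts of the proximal small intestine of Mki67tm1.1Cle/J mice, 56 h after 12 Gy to the whole body (2 libraries) or without irradiation (non-IR, littermates, 1 library). The labels do not say whether replicate libraries came from separate cultures or animals, so p-values measure the spread between these libraries, which may be technical. Non-IR crypts passed a 70-µm strainer and IR crypts a 100-µm strainer, and this difference cannot be told apart from irradiation. The 18 ATAC-seq libraries of the series were not analysed here.

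Replication begins in G1, when Cdc6 and Cdt1 load the MCM helicase onto origins. Cyclin E with its kinase then helps to turn the loaded helicase into an active fork, on which primase and the polymerases copy DNA, the Pcna clamp holds them in place, and Fen1 and Lig1 join the lagging strand. Many of these genes are targets of E2F transcription factors and are transcribed most strongly around the G1/S transition, so their RNA is a common readout of cycling cells, which in the intestine sit in the crypt.

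Promoter sequences, from 250 bases before to 50 bases after the start of transcription, were held by the RefSeq table of build GRCm38.p6 for 38 of the 46 genes, in 45 windows. They were searched on both strands for TTTGGCGC, TTTCCCGC, TTTGCCGC and TTTCGCGC, letters of the E2F type. At least 1 of these stood in the promoters of 15 of the 38 genes (39.5%), against 2.60% of 27025 genes with a promoter of the same length. TTTCCCGC was found in 8 of the 38 genes, TTTCGCGC in 7, TTTGGCGC in 6 and TTTGCCGC in 0. The letters TTTGGCGC and TTTCGCGC can overlap when read on opposite strands. CCAAT stood in 60.5% of the 38 genes and in 41.1% of all, and GGGCGG in 73.7% and 38.2%. The cell cycle letters TTTGAA or TTCGAA, which mark many mitosis genes, stood in 15.8% of the 38 genes and in 21.7% of all, and in 11 of 14 mitosis genes with a promoter. A match to letters is a description of the window and not a measured binding site.

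The following promoters, written 5′ to 3′ on the gene's own strand with the E2F-type letters in capitals, belong to genes that the results turn on. Mcm5, Mcm6, Cdc6 and Pold1 hold such letters, and Rrm2, which fell in both D7 tables, holds none of the 4.
Mcm5, chr8:75109259-75109558, + strand: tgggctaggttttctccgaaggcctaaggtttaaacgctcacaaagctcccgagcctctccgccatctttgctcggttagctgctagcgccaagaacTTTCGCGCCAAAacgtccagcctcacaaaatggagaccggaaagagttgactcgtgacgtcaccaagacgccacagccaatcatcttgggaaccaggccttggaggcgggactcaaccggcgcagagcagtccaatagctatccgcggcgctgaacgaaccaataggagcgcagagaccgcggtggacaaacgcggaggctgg
Mcm6, chr1:128359656-128359955, - strand: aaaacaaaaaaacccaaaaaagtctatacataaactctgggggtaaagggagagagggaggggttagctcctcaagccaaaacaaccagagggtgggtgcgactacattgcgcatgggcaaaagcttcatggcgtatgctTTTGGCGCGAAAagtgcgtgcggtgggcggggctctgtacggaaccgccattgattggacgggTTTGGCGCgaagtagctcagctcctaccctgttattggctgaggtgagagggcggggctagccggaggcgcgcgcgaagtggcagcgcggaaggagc
Cdc6, chr11:98907901-98908200, + strand: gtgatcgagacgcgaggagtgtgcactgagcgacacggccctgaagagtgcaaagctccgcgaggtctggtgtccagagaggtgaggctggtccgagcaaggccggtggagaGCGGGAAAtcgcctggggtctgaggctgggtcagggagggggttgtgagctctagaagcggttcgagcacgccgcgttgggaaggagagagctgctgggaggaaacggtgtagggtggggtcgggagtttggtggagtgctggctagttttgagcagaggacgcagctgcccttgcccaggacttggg
Pold1, chr7:44548766-44549065, - strand: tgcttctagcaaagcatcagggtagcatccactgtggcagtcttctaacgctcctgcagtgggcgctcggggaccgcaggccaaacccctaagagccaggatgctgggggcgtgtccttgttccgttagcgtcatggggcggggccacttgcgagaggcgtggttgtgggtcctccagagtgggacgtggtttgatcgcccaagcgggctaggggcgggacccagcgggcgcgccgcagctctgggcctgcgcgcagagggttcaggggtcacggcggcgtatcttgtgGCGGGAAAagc
Rrm2, chr12:24708004-24708303, + strand: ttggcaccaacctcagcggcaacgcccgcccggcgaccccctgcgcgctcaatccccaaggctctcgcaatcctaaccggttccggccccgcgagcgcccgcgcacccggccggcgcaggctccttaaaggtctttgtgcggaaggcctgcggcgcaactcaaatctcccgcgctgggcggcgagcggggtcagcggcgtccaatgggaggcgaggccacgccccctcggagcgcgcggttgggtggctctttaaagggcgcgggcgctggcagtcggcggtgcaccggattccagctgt

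Bulk levels are FPKM (fragments per kilobase of transcript scaled to the mapped fragments of the library), which the submitters normalized by table. Summed FPKM ran from 447728 to 621996 over the 18 libraries. Where the smallest values allowed it, the depth of libraries relative to others of their table was read from the value of 1 fragment, which varied between 0.877 and 1.09 times. Epithelial identity was clear: Epcam, an epithelial adhesion molecule, ran from 532 to 2148 FPKM, while Ptprc, the pan-leukocyte marker, stayed at or below 0.0726 FPKM and Pecam1, an endothelial marker, at or below 0.203 FPKM. Single-cell libraries held 699 to 4283 cells after filtering, with medians of 6709 to 14399 UMIs (unique molecular identifiers, 1 per captured transcript) a cell. Of the 21 pairs of libraries, 2 shared 1 cell barcode each.

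Replication genes were lower with TGFB1 at day 7, and the fall was larger after irradiation. In D7 non-IR organoids 38 of the 46 fell, 2 rose and 6 were not called by limma at a Benjamini-Hochberg adjusted p under 0.05 over all 11330 genes tested (34.9% of all genes fell and 33.3% rose). The median log2 difference of the 46 was -0.38, on the scale of log2(FPKM + 1) used for every bulk difference here, against -0.02 for all genes. In D7 IR organoids all 46 fell (39.7% of all genes fell), with a median of -1.32 against -0.03, and adjusted p-values from 1.8e-09 to 1.5e-05. At least 2-fold falls on this scale were reached by 35 of the 46 in D7 IR organoids, against 5.39% of all genes, and by 0 of the 46 in D7 non-IR organoids (2.92% of all genes fell and 5.52% rose 2-fold there). At D11 the picture was split: 17 fell, 6 rose and 23 were not called (31.6% of all genes fell and 32.3% rose), with a median of -0.16 against 0.01. At D11, 1 member fell and 1 rose at least 2-fold (8.04% and 5.67% of all genes). When all 18 libraries shared a fit, 11 members rose at D11 and 1 in D7 non-IR organoids. The share of all genes that rose in that fit is not given here, so these counts have no background.

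**Figure D1:**
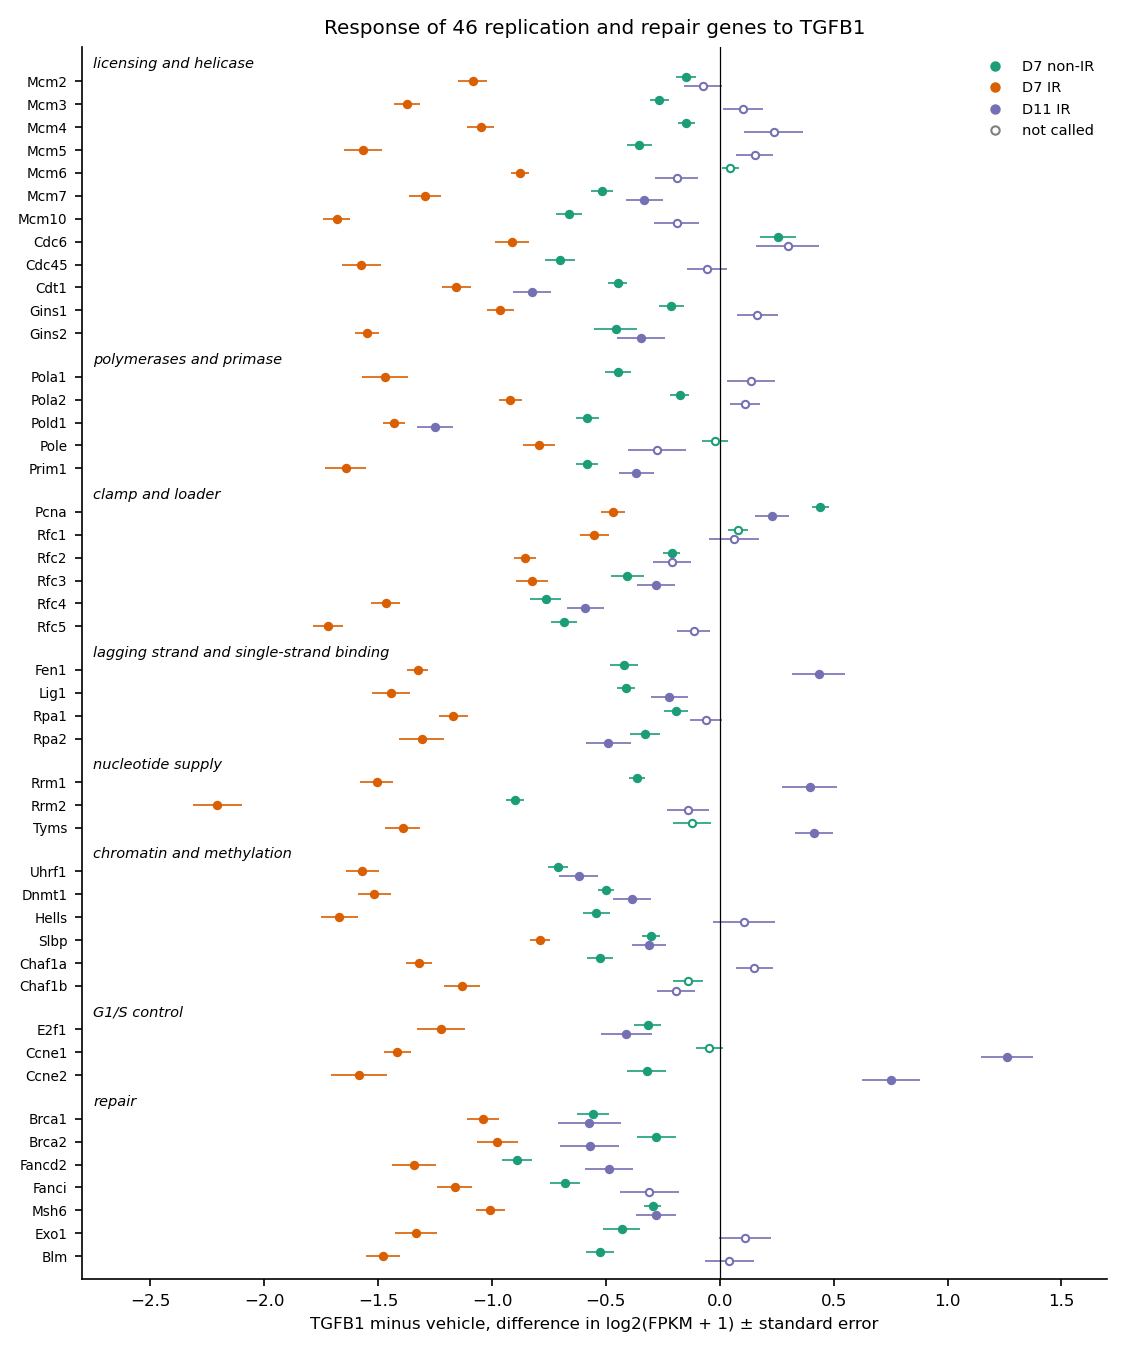
Difference between TGFB1 and vehicle libraries on the log2(FPKM + 1) scale with its standard error for each of the 46 genes, by role, in the 3 bulk conditions (3 libraries a group); open points were not called. All 46 points of D7 IR organoids lie left of 0, between -2.21 and -0.47, while D11 IR points lie between -1.25 and 1.26.

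Summed over the 46 genes, D7 non-IR vehicle libraries held 1193 ± 1.97 FPKM and TGFB1 libraries 1001 ± 34.7 FPKM (SD, n = 3). After irradiation the sums were 1277 ± 8.96 FPKM with vehicle and 529 ± 35.5 FPKM with TGFB1. At D11 they were 1564 ± 134 FPKM with vehicle and 1414 ± 3.96 FPKM with TGFB1, where the vehicle libraries spread from 1414 to 1674 FPKM and met the TGFB1 range of 1411 to 1419 FPKM. In bulk RNA, fewer cells of a type and less RNA per cell cannot be told apart.

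Other RNAs differed beside the D7 IR fall. Immune list genes, 6 in number, summed to 2.92 to 4.00 FPKM with vehicle and 10.2 to 11.4 FPKM with TGFB1, most of it Lyz2, while Cd3e was listed at 0 in all 6 libraries. The 6 mesenchymal genes summed to 0.382 to 0.558 FPKM with vehicle and 3.04 to 4.76 FPKM with TGFB1, most of it Acta2 (2.56 to 4.14 FPKM with TGFB1). The 8 epithelial genes summed to 5661 to 5816 FPKM with vehicle and 13794 to 14903 FPKM with TGFB1, and 6 of them rose while 2 fell. In D7 non-IR organoids their sums were 5205 to 5288 and 12927 to 13494 FPKM, again with 6 higher and 2 lower. Markers of the intestinal cell types differed as well. The 4 stem cell genes summed to 804 to 833 FPKM with vehicle and 265 to 337 FPKM with TGFB1 in D7 IR organoids, and 3 of them fell. In D7 non-IR organoids the stem sums were 556 to 622 and 213 to 240.2 FPKM. The 6 enterocyte genes summed to 11718 to 12446 and 17513 to 18392 FPKM with irradiation, where 3 rose and 2 fell, and to 3128 to 3271 and 1379 to 1496 FPKM without it, where 1 rose and 5 fell. Their irradiation by TGFB1 term was higher for 6 of 6, with a median of 1.54. Paneth genes in D7 IR organoids summed to 3456 to 4005 and 6041 to 6133 FPKM (4 of 4 rose), enteroendocrine genes to 232 to 238 and 404 to 427 FPKM (10 of 11 rose) and tuft genes to 6.34 to 6.36 and 15.0 to 16.6 FPKM (4 of 4 rose), while 7 of 8 goblet genes fell. The part of these RNAs in the results was not tested.

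Licensing and helicase genes had median log2 differences of -0.31 (D7 non-IR), -1.23 (D7 IR) and -0.07 (D11 IR), the order kept for every role. Cdc6, which loads the MCM ring at origins together with Cdt1, measured 6.38, 7.33 and 6.54 FPKM with vehicle and 9.28, 8.03 and 7.49 FPKM with TGFB1 in D7 non-IR organoids. Cdc6 in D7 IR organoids measured 5.79, 6.40 and 6.98 FPKM with vehicle and 2.78, 3.03 and 2.95 FPKM with TGFB1. Cdc6 at D11 measured 10.1, 9.01 and 6.65 FPKM with vehicle and 10.6, 9.48 and 11.9 FPKM with TGFB1. Cdc6 was higher (0.26 ± 0.08) at D7 without irradiation, lower (-0.91 ± 0.08) at D7 with it and not called (0.30 ± 0.14, adjusted p = 0.0851) at D11. Cdc6 and Pcna were the 2 members to rise in D7 non-IR organoids. Cdt1, the partner of Cdc6 in loading, measured 32.4, 31.0 and 32.1 FPKM with vehicle and 24.2, 22.6 and 22.4 FPKM with TGFB1 in D7 non-IR organoids. Cdt1 in D7 IR organoids measured 42.3, 40.95 and 42.7 FPKM with vehicle and 19.3, 19.4 and 16.4 FPKM with TGFB1. Cdt1 at D11 measured 76.5, 73.9 and 63.3 FPKM with vehicle and 40.5, 39.0 and 39.5 FPKM with TGFB1. Every table showed a called fall for Cdt1, of -0.45 ± 0.04, -1.16 ± 0.06 and -0.82 ± 0.08 log2 in that order.

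Mcm5, a subunit of the MCM ring, measured 37.0, 35.7 and 35.9 FPKM with vehicle and 30.9, 27.1 and 26.5 FPKM with TGFB1 in D7 non-IR organoids. Mcm5 in D7 IR organoids measured 50.8, 50.4 and 50.5 FPKM with vehicle and 16.5, 18.9 and 14.2 FPKM with TGFB1. Mcm5 at D11 measured 59.9, 55.4 and 49.6 FPKM with vehicle and 62.2, 60.5 and 60.5 FPKM with TGFB1. Mcm5 fell by 0.35 on the log2 scale without irradiation and by 1.57 with it, and its D11 difference was 0.15 ± 0.08 (adjusted p = 0.126). Mcm6, another subunit of the ring, measured 73.0, 70.4 and 71.3 FPKM with vehicle and 77.7, 71.9 and 72.4 FPKM with TGFB1 in D7 non-IR organoids. Mcm6 in D7 IR organoids measured 74.3, 74.0 and 76.4 FPKM with vehicle and 41.8, 40.7 and 38.7 FPKM with TGFB1. Mcm6 at D11 measured 117, 104 and 91.5 FPKM with vehicle and 91.3, 91.7 and 89.2 FPKM with TGFB1. Mcm6 was not called (0.05 ± 0.04) at D7 without irradiation, lower (-0.88 ± 0.04) at D7 with it and not called (-0.19 ± 0.10, adjusted p = 0.108) at D11. Mcm10, which helps to start the fork, measured 14.0, 14.9 and 14.6 FPKM with vehicle and 9.61, 8.47 and 8.34 FPKM with TGFB1 in D7 non-IR organoids. Mcm10 in D7 IR organoids measured 22.6, 21.6 and 22.6 FPKM with vehicle and 6.66, 6.40 and 5.75 FPKM with TGFB1. Mcm10 at D11 measured 29.7, 28.1 and 22.6 FPKM with vehicle and 22.5, 24.1 and 23.1 FPKM with TGFB1. Mcm10 thus fell at D7 both without irradiation (-0.66 ± 0.06 log2) and with it (-1.68 ± 0.06 log2), whereas the D11 difference of -0.19 ± 0.10 had an adjusted p of 0.12. Cdc45, which joins MCM and GINS in the active helicase, measured 16.7, 18.9 and 18.7 FPKM with vehicle and 11.9, 10.1 and 10.3 FPKM with TGFB1 in D7 non-IR organoids. Cdc45 in D7 IR organoids measured 18.5, 17.2 and 18.8 FPKM with vehicle and 6.47, 5.06 and 4.90 FPKM with TGFB1. Cdc45 at D11 measured 21.4, 25.1 and 20.7 FPKM with vehicle and 21.8, 22.1 and 20.3 FPKM with TGFB1. Both D7 differences passed the test, at -0.70 ± 0.07 without and -1.57 ± 0.09 with irradiation, and D11 did not (-0.06 ± 0.09, adjusted p = 0.582). Mcm2, Mcm3, Mcm4, Mcm7, Gins1 and Gins2, the rest of this role, fell in both D7 tables, and of these Mcm7 and Gins2 also fell at D11.

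Polymerase and primase genes had medians of -0.45, -1.43 and -0.28. Pola1, the catalytic subunit of the polymerase that extends primers, measured 8.68, 7.76 and 8.09 FPKM with vehicle and 5.86, 5.81 and 5.496 FPKM with TGFB1 in D7 non-IR organoids. Pola1 in D7 IR organoids measured 4.87, 4.93 and 4.89 FPKM with vehicle and 1.43, 1.14 and 0.851 FPKM with TGFB1. Pola1 at D11 measured 6.06, 4.74 and 5.02 FPKM with vehicle and 5.84, 6.27 and 5.54 FPKM with TGFB1. Pola1 fell by 0.45 on the log2 scale without irradiation and by 1.47 with it, and its D11 difference was 0.14 ± 0.11 (adjusted p = 0.274). Pole, the catalytic subunit of the leading-strand polymerase, measured 7.53, 6.92 and 7.10 FPKM with vehicle and 7.51, 6.78 and 6.88 FPKM with TGFB1 in D7 non-IR organoids. Pole in D7 IR organoids measured 10.5, 9.64 and 11.1 FPKM with vehicle and 5.40, 6.07 and 5.30 FPKM with TGFB1. Pole at D11 measured 18.3, 13.8 and 12.3 FPKM with vehicle and 11.6, 11.5 and 12.5 FPKM with TGFB1. Pole was not called (-0.02 ± 0.06) at D7 without irradiation, lower (-0.79 ± 0.07) at D7 with it and not called (-0.28 ± 0.13, adjusted p = 0.0798) at D11. Pold1, the catalytic subunit of the lagging-strand polymerase, measured 27.7, 26.5 and 28.2 FPKM with vehicle and 19.2, 17.0 and 17.9 FPKM with TGFB1 in D7 non-IR organoids. Pold1 in D7 IR organoids measured 33.0, 33.5 and 31.9 FPKM with vehicle and 11.6, 12.1 and 10.9 FPKM with TGFB1. Pold1 at D11 measured 61.5, 56.0 and 55.1 FPKM with vehicle and 24.1, 21.7 and 25.005 FPKM with TGFB1. The TGFB1 libraries lay below the vehicle libraries in each table (-0.58 ± 0.05, -1.43 ± 0.05 and -1.25 ± 0.08 log2 in that order). The Pold1 difference at D11 was the largest fall of the 46 there. Prim1, the primase, fell in each table (-0.58 ± 0.05, -1.64 ± 0.09 and -0.37 ± 0.08), and Pola2, a regulatory subunit, in both D7 tables (-0.18 ± 0.04 and -0.92 ± 0.05).

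Clamp and loader genes showed the smallest median fall of any role in D7 IR organoids, with medians of -0.31, -0.84 and -0.16. Pcna, the sliding clamp, measured 130.2, 141 and 138 FPKM with vehicle and 186, 190.4 and 181 FPKM with TGFB1 in D7 non-IR organoids. Pcna in D7 IR organoids measured 62.0, 57.7 and 64.8 FPKM with vehicle and 46.2, 44.2 and 42.0 FPKM with TGFB1. Pcna at D11 measured 59.3, 63.6 and 57.7 FPKM with vehicle and 67.8, 73.8 and 70.4 FPKM with TGFB1. Pcna was higher (0.44 ± 0.04) at D7 without irradiation, lower (-0.47 ± 0.05) at D7 with it and higher (0.23 ± 0.07, adjusted p = 0.0213) at D11. Pcna thus moved in opposite directions in the 2 D7 tables. Rfc1, the large subunit of the clamp loader, measured 17.0, 16.6 and 16.6 FPKM with vehicle and 17.3, 18.6 and 17.2 FPKM with TGFB1 in D7 non-IR organoids. Rfc1 in D7 IR organoids measured 12.2, 11.4 and 11.8 FPKM with vehicle and 7.502, 8.47 and 7.30 FPKM with TGFB1. Rfc1 at D11 measured 17.0, 12.8 and 13.0 FPKM with vehicle and 14.1, 14.4 and 16.0 FPKM with TGFB1. Rfc1 was not called (0.08 ± 0.04) at D7 without irradiation, lower (-0.55 ± 0.06) at D7 with it and not called (0.06 ± 0.11, adjusted p = 0.633) at D11. Rfc4, a small subunit of the loader, measured 17.8, 21.1 and 19.9 FPKM with vehicle and 12.0, 10.2 and 11.2 FPKM with TGFB1 in D7 non-IR organoids. Rfc4 in D7 IR organoids measured 19.6, 20.2 and 20.3 FPKM with vehicle and 6.04, 7.32 and 6.55 FPKM with TGFB1. Rfc4 at D11 measured 24.3, 25.3 and 23.5 FPKM with vehicle and 17.4, 15.5 and 14.7 FPKM with TGFB1. Rfc4 fell in all 3 tables, with log2 differences of -0.77 ± 0.07, -1.47 ± 0.06 and -0.59 ± 0.08 in that order. Rfc5, another small subunit, measured 19.4, 21.2 and 20.2 FPKM with vehicle and 13.1, 11.5 and 12.1 FPKM with TGFB1 in D7 non-IR organoids. Rfc5 in D7 IR organoids measured 28.8, 28.6 and 24.996 FPKM with vehicle and 8.06, 7.17 and 7.65 FPKM with TGFB1. Rfc5 at D11 measured 26.5, 24.8 and 24.7 FPKM with vehicle and 22.8, 24.6 and 22.6 FPKM with TGFB1. Rfc5 thus fell at D7 both without irradiation (-0.68 ± 0.06 log2) and with it (-1.72 ± 0.07 log2), whereas the D11 difference of -0.12 ± 0.07 had an adjusted p of 0.18. Rfc2 and Rfc3, the remaining small subunits, fell in both D7 tables, with differences of -0.85 ± 0.05 and -0.82 ± 0.07 in D7 IR organoids.

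Lagging-strand and single-strand binding genes had medians of -0.37, -1.32 and -0.14. Fen1, the nuclease that trims Okazaki fragments, measured 26.95, 25.3 and 24.4 FPKM with vehicle and 20.6, 17.5 and 18.6 FPKM with TGFB1 in D7 non-IR organoids. Fen1 in D7 IR organoids measured 39.6, 38.2 and 40.5 FPKM with vehicle and 15.3, 14.4 and 15.7 FPKM with TGFB1. Fen1 at D11 measured 34.0, 33.5 and 24.4 FPKM with vehicle and 41.3, 41.1 and 41.5 FPKM with TGFB1. Fen1 was lower (-0.42 ± 0.06) at D7 without irradiation, lower (-1.33 ± 0.05) at D7 with it and higher (0.43 ± 0.12, adjusted p = 0.00837) at D11. Lig1, the ligase that seals them, measured 35.2, 32.6 and 34.4 FPKM with vehicle and 25.7, 25.04 and 25.2 FPKM with TGFB1 in D7 non-IR organoids. Lig1 in D7 IR organoids measured 43.0, 42.5 and 42.0 FPKM with vehicle and 15.7, 16.9 and 12.7 FPKM with TGFB1. Lig1 at D11 measured 58.9, 57.1 and 50.5 FPKM with vehicle and 48.7, 48.6 and 44.8 FPKM with TGFB1. Lig1 was called lower at D7 without irradiation (-0.41 ± 0.04), at D7 with it (-1.44 ± 0.09) and at D11 (-0.22 ± 0.08). Rpa1 and Rpa2, which coat single-stranded DNA, fell in both D7 tables (-1.17 ± 0.06 and -1.31 ± 0.10 in D7 IR organoids), and Rpa2 also at D11 (-0.49 ± 0.10).

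Nucleotide supply genes had medians of -0.36, -1.51 and 0.39. Rrm2, the small subunit of ribonucleotide reductase, which makes deoxynucleotides, measured 47.3, 47.8 and 49.4 FPKM with vehicle and 24.8, 24.96 and 26.3 FPKM with TGFB1 in D7 non-IR organoids. Rrm2 in D7 IR organoids measured 40.4, 38.9 and 41.3 FPKM with vehicle and 8.79, 8.96 and 6.30 FPKM with TGFB1. Rrm2 at D11 measured 48.5, 45.5 and 38.8 FPKM with vehicle and 40.2, 37.7 and 42.1 FPKM with TGFB1. The groups did not overlap at D7 in either table (-0.90 ± 0.04 and -2.21 ± 0.11 log2), and the D11 difference of -0.14 ± 0.09 missed the threshold (adjusted p = 0.206). On the log2(FPKM + 1) scale this was the largest fall of the 46 in both D7 tables, but by the ratio of mean FPKM Fancd2 fell further than Rrm2, with log2 ratios of -1.12 and -0.93 without irradiation and -2.36 and -2.33 with it. Rrm1, the large subunit of the same enzyme, measured 52.8, 54.0 and 52.9 FPKM with vehicle and 42.6, 40.0 and 40.8 FPKM with TGFB1 in D7 non-IR organoids. Rrm1 in D7 IR organoids measured 39.3, 42.5 and 41.01 FPKM with vehicle and 15.2, 14.1 and 12.2 FPKM with TGFB1. Rrm1 at D11 measured 53.5, 43.1 and 36.1 FPKM with vehicle and 56.2, 58.9 and 58.0 FPKM with TGFB1. Rrm1 was lower (-0.36 ± 0.04) at D7 without irradiation, lower (-1.51 ± 0.07) at D7 with it and higher (0.39 ± 0.12, adjusted p = 0.0175) at D11. Tyms, thymidylate synthase, measured 9.13, 7.81 and 8.91 FPKM with vehicle and 8.86, 7.86 and 6.86 FPKM with TGFB1 in D7 non-IR organoids. Tyms in D7 IR organoids measured 14.4, 14.8 and 15.4 FPKM with vehicle and 5.41, 5.44 and 4.35 FPKM with TGFB1. Tyms at D11 measured 10.2, 10.2 and 10.3 FPKM with vehicle and 13.3, 15.5 and 13.1 FPKM with TGFB1. Tyms was not called (-0.12 ± 0.08) at D7 without irradiation, lower (-1.39 ± 0.08) at D7 with it and higher (0.41 ± 0.08, adjusted p = 0.00182) at D11.

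Chromatin and methylation genes had medians of -0.51, -1.42 and -0.25. Uhrf1, which brings Dnmt1 to newly copied DNA, measured 38.1, 36.9 and 36.3 FPKM with vehicle and 23.6, 22.0 and 21.4 FPKM with TGFB1 in D7 non-IR organoids. Uhrf1 in D7 IR organoids measured 41.1, 41.1 and 40.0 FPKM with vehicle and 14.3, 13.7 and 11.4 FPKM with TGFB1. Uhrf1 at D11 measured 63.1, 65.4 and 53.9 FPKM with vehicle and 39.6, 39.0 and 38.5 FPKM with TGFB1. Uhrf1 was called lower at D7 without irradiation (-0.71 ± 0.04), at D7 with it (-1.57 ± 0.07) and at D11 (-0.62 ± 0.08). Dnmt1, the maintenance DNA methyltransferase, measured 33.2, 33.2 and 34.0 FPKM with vehicle and 23.9, 22.9 and 23.4 FPKM with TGFB1 in D7 non-IR organoids. Dnmt1 in D7 IR organoids measured 43.7, 42.6 and 44.4 FPKM with vehicle and 15.0, 16.2 and 12.7 FPKM with TGFB1. Dnmt1 at D11 measured 68.4, 60.4 and 56.2 FPKM with vehicle and 46.1, 46.6 and 47.5 FPKM with TGFB1. Dnmt1 fell in all 3 tables, with log2 differences of -0.50 ± 0.04, -1.52 ± 0.07 and -0.39 ± 0.08 in that order. Chaf1b, a subunit of the chromatin assembly factor that deposits histones behind the fork, measured 14.3, 14.7 and 16.0 FPKM with vehicle and 14.9, 12.9 and 12.8 FPKM with TGFB1 in D7 non-IR organoids. Chaf1b in D7 IR organoids measured 22.1, 21.7 and 22.3 FPKM with vehicle and 8.98, 11.1 and 8.62 FPKM with TGFB1. Chaf1b at D11 measured 30.3, 32.0 and 27.5 FPKM with vehicle and 26.1, 27.8 and 24.2 FPKM with TGFB1. Chaf1b was not called (-0.14 ± 0.06) at D7 without irradiation, lower (-1.13 ± 0.08) at D7 with it and not called (-0.19 ± 0.08, adjusted p = 0.0637) at D11. Slbp, which binds the stem-loop of histone mRNAs, measured 39.6, 39.2 and 36.8 FPKM with vehicle and 31.8, 30.5 and 30.9 FPKM with TGFB1 in D7 non-IR organoids. Slbp in D7 IR organoids measured 37.4, 37.4 and 39.3 FPKM with vehicle and 21.5, 20.97 and 22.4 FPKM with TGFB1. Slbp at D11 measured 49.8, 48.0 and 44.2 FPKM with vehicle and 39.8, 38.1 and 35.8 FPKM with TGFB1. Every table showed a called fall for Slbp, of -0.30 ± 0.04, -0.79 ± 0.04 and -0.31 ± 0.08 log2 in that order. Hells, a chromatin remodeller, and Chaf1a fell in both D7 tables (-1.67 ± 0.08 and -1.32 ± 0.06 in D7 IR organoids) and were not called at D11.

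The 3 genes of G1/S control had medians of -0.32, -1.42 and 0.75, and held the largest rise of D11. E2f1, an activating E2F factor, measured 10.6, 10.9 and 11.1 FPKM with vehicle and 8.93, 7.72 and 8.95 FPKM with TGFB1 in D7 non-IR organoids. E2f1 in D7 IR organoids measured 11.8, 13.1 and 11.3 FPKM with vehicle and 5.56, 4.53 and 3.79 FPKM with TGFB1. E2f1 at D11 measured 19.8, 19.1 and 14.7 FPKM with vehicle and 14.0, 12.4 and 13.1 FPKM with TGFB1. E2f1 was called lower at D7 without irradiation (-0.32 ± 0.06), at D7 with it (-1.22 ± 0.11) and at D11 (-0.41 ± 0.11). Ccne1, cyclin E1, measured 9.18, 7.94 and 8.25 FPKM with vehicle and 7.98, 8.05 and 8.41 FPKM with TGFB1 in D7 non-IR organoids. Ccne1 in D7 IR organoids measured 14.3, 15.1 and 15.6 FPKM with vehicle and 5.00, 5.27 and 4.72 FPKM with TGFB1. Ccne1 at D11 measured 5.99, 7.61 and 6.31 FPKM with vehicle and 16.0, 16.0 and 19.9 FPKM with TGFB1. Ccne1 was not called (-0.05 ± 0.06) at D7 without irradiation, lower (-1.42 ± 0.06) at D7 with it and higher (1.26 ± 0.11, adjusted p = 9.1e-06) at D11. Ccne2, cyclin E2, measured 4.67, 4.30 and 5.11 FPKM with vehicle and 3.96, 3.05 and 3.67 FPKM with TGFB1 in D7 non-IR organoids. Ccne2 in D7 IR organoids measured 5.74, 6.17 and 6.67 FPKM with vehicle and 1.34, 1.91 and 1.02 FPKM with TGFB1. Ccne2 at D11 measured 4.76, 3.72 and 3.52 FPKM with vehicle and 6.36, 7.57 and 8.30 FPKM with TGFB1. Ccne2 was lower (-0.32 ± 0.09) at D7 without irradiation, lower (-1.58 ± 0.12) at D7 with it and higher (0.75 ± 0.13, adjusted p = 5.4e-04) at D11. Both cyclin E genes therefore changed sign between D7 IR and D11 IR organoids, which E2f1 did not.

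Repair genes had medians of -0.53, -1.16 and -0.31. Brca1, a homologous recombination factor, measured 6.99, 6.32 and 6.51 FPKM with vehicle and 4.60, 4.13 and 3.79 FPKM with TGFB1 in D7 non-IR organoids. Brca1 in D7 IR organoids measured 4.45, 4.65 and 4.54 FPKM with vehicle and 1.60, 1.81 and 1.68 FPKM with TGFB1. Brca1 at D11 measured 10.6, 9.10 and 6.80 FPKM with vehicle and 5.52, 5.08 and 5.99 FPKM with TGFB1. Every table showed a called fall for Brca1, of -0.56 ± 0.07, -1.04 ± 0.07 and -0.57 ± 0.14 log2 in that order. Fancd2, a protein of the Fanconi anemia crosslink repair pathway, measured 6.05, 5.77 and 5.83 FPKM with vehicle and 2.69, 2.51 and 2.94 FPKM with TGFB1 in D7 non-IR organoids. Fancd2 in D7 IR organoids measured 3.09, 2.97 and 2.95 FPKM with vehicle and 0.781, 0.511 and 0.464 FPKM with TGFB1. Fancd2 at D11 measured 5.18, 4.10 and 4.38 FPKM with vehicle and 3.02, 3.11 and 2.73 FPKM with TGFB1. Fancd2 was called lower at D7 without irradiation (-0.89 ± 0.07), at D7 with it (-1.34 ± 0.10) and at D11 (-0.49 ± 0.11). Msh6, a mismatch recognition protein, measured 32.7, 31.4 and 31.2 FPKM with vehicle and 25.9, 25.9 and 25.3 FPKM with TGFB1 in D7 non-IR organoids. Msh6 in D7 IR organoids measured 19.4, 19.8 and 21.8 FPKM with vehicle and 10.1, 9.90 and 8.88 FPKM with TGFB1. Msh6 at D11 measured 31.7, 28.6 and 25.4 FPKM with vehicle and 23.6, 22.1 and 24.1 FPKM with TGFB1. Msh6 fell in all 3 tables, with log2 differences of -0.30 ± 0.04, -1.01 ± 0.06 and -0.28 ± 0.09 in that order. Exo1, an exonuclease of mismatch repair and end resection, measured 4.46, 3.77 and 3.85 FPKM with vehicle and 3.01, 2.44 and 2.74 FPKM with TGFB1 in D7 non-IR organoids. Exo1 in D7 IR organoids measured 4.45, 4.96 and 4.66 FPKM with vehicle and 1.26, 1.51 and 1.02 FPKM with TGFB1. Exo1 at D11 measured 6.28, 5.55 and 4.53 FPKM with vehicle and 5.68, 5.70 and 6.39 FPKM with TGFB1. Exo1 thus fell at D7 both without irradiation (-0.43 ± 0.08 log2) and with it (-1.33 ± 0.09 log2), whereas the D11 difference of 0.11 ± 0.12 had an adjusted p of 0.426. All 7 repair members fell in both D7 tables, and Brca1, Brca2, Fancd2 and Msh6 also fell at D11, while Fanci, Exo1 and Blm were not called there.

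**Figure D2:**
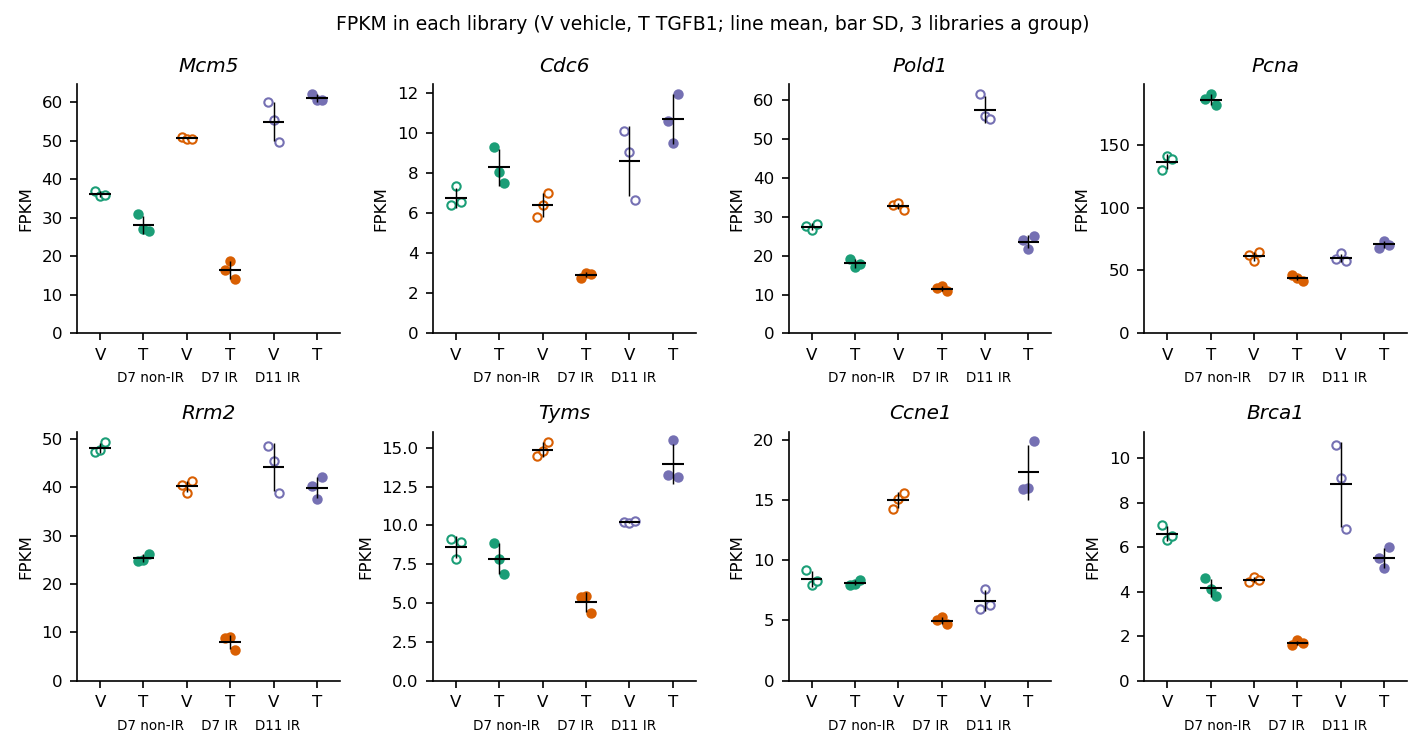
FPKM of 8 of the genes in each of the 18 bulk libraries, as points, with the mean as a line and the SD as a bar (3 libraries a group; V vehicle, T TGFB1). Rrm2 drops from a mean of 40.2 to 8.02 FPKM in D7 IR organoids, Pcna rises from 137 to 186 FPKM in D7 non-IR organoids and Ccne1 rises from 6.64 to 17.3 FPKM at D11.

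Whether irradiation changed the response to TGFB1 was tested as an interaction over the 12 D7 libraries. All 46 genes had a more negative response in irradiated organoids (27.8% of 11411 genes did), with a median interaction term of -0.91 against -0.01 for all genes and adjusted p-values from 8.3e-09 to 0.00697. The difference reached 2-fold for 16 of the 46, against 1.85% of all genes. Ccne1 (-1.37 ± 0.08), Rrm2 (-1.31 ± 0.12) and Tyms (-1.27 ± 0.12) had the largest terms on this scale, and Rfc3 (-0.42 ± 0.11), Fancd2 (-0.45 ± 0.11) and Brca1 (-0.48 ± 0.09) the smallest. The order depends on the pseudocount for genes of low FPKM: with 0.1 in place of 1 the terms were -1.12 for Fancd2, -0.72 for Brca1, -0.43 for Rfc3 and -1.70 for Ccne2. Pcna (-0.91 ± 0.07) and Cdc6 (-1.17 ± 0.11) were the members called in opposite directions in the 2 tables.

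The later collection was compared in the same way over the 12 irradiated libraries. The response at D11 was higher than at D7 for 45 of the 46 genes (31.5% of 11456 genes), with a median term of 1.12 against -0.01 for all genes, and 26 reached 2-fold (6.83% of all genes). The D7 IR libraries serve both this test and the previous one, so the 2 terms are not independent. Ccne1 (2.68 ± 0.13), Ccne2 (2.34 ± 0.19) and Rrm2 (2.07 ± 0.15) had the largest terms on this scale. Pold1 was the exception at 0.18 ± 0.09 (adjusted p = 0.104), and Cdt1 (0.33 ± 0.11) and Brca2 (0.41 ± 0.16) had the next smallest, though with a pseudocount of 0.1 the Brca2 term was 0.92.

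Vehicle levels are set side by side without a test, because the tables were normalized separately. Without TGFB1, 24 of the 46 genes were higher in D7 IR than in D7 non-IR organoids with no overlap between 3 and 3 libraries (40.7% of all genes were), and 13 were lower (44.3% of all genes). Pcna stood furthest apart, at a mean of 137 FPKM in D7 non-IR and 61.5 FPKM in D7 IR vehicle libraries, a log2 ratio of -1.14. Fancd2 (5.88 and 3.00 FPKM) and Msh6 (31.8 and 20.3 FPKM) also stood lower after irradiation, whereas Ccne1 (8.46 and 15.0 FPKM), Tyms (8.61 and 14.9 FPKM) and Mcm3 (43.0 and 70.0 FPKM) stood higher. Between D7 IR and D11 IR vehicle libraries 29 were higher at D11 (33.7% of all genes) and 4 lower (33.1% of all genes).

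Related genes outside the 46 were read from lists of 43 other replication genes, 18 other repair genes and 18 mitosis genes. Among other replication genes 31 fell and 0 rose in D7 non-IR organoids, 42 fell and 0 rose in D7 IR organoids, and 9 fell and 11 rose at D11, with medians of -0.41, -1.10 and -0.02. Other repair genes were mixed, with 9 lower and 4 higher at D7 without irradiation, 12 lower and 4 higher with it, and 7 lower and 5 higher at D11. Among all genes tested 34.9%, 39.7% and 31.6% fell and 33.3%, 35.8% and 32.3% rose in the same order. Mitosis genes, such as the kinase Aurkb and the cyclin Ccnb1, fell in all 18 cases in both D7 tables, with medians of -0.99 and -1.74, and at D11 2 fell and 8 rose (median 0.14). In D7 non-IR organoids the median of the mitosis genes was thus below that of the 46 members (-0.99 and -0.38), a description that was not tested.

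In the single-cell time course, many replication genes were lower after 15 h of TGFB1 and none after 6 h. Levels here are CPM, a gene's UMIs scaled to a fixed library total, with exact Poisson 95% intervals that cover counting error only. With 1 library a time there is no test, and a gene was counted as changed when it differed at least 1.5-fold and the intervals did not overlap. After 6 h 0 of the 46 genes differed from 0 h. After 15 h 33 were lower and 0 higher, and after 24 h 13 were lower and 0 higher. Of the 40 members that reached a mean of 10 CPM, 0, 30 and 10 were lower, against 1.36%, 4.29% and 6.17% of 8507 genes at that level, of which 3.47%, 7.18% and 10.5% were higher. Between 6 and 15 h 35 were lower, 31 of them among the 40 (3.94% of the 8507), and between 15 and 24 h 3 were higher (2 of the 40, against 2.1%).

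Summed over the 46 genes the level was 1855 CPM at 0 h, 1906 at 6 h, 1204 at 15 h and 1439 at 24 h. Mitosis genes held 1022, 1228, 765 and 567 CPM at the same times, and 0, 5 and 16 of the 18 were lower than at 0 h after 6, 15 and 24 h. The members were therefore at their lowest sum at 15 h and the mitosis genes at 24 h. Enteroendocrine list genes summed to 20.6, 18.4, 37.3 and 92.5 CPM and Paneth list genes to 449.5, 487, 618 and 923 CPM. Immune list genes stayed between 1.26 and 1.68 CPM. Their part in the result was not tested.

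**Figure D3:**
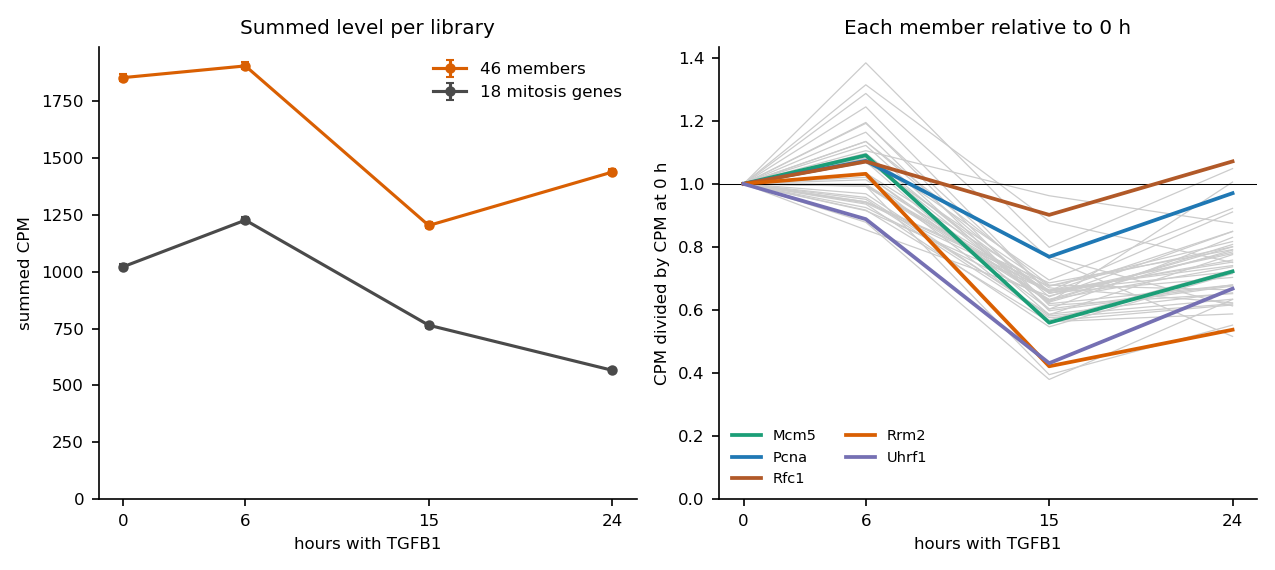
Left, summed CPM of the 46 members and of 18 mitosis genes in the 4 organoid libraries against hours with TGFB1, with exact Poisson 95% intervals, which are smaller than the points; right, each member's CPM divided by its CPM at 0 h. The members' sum stands at 1906 CPM at 6 h, 1204 CPM at 15 h and 1439 CPM at 24 h, and that of the mitosis genes is lowest at 24 h, at 567 CPM.

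Among members that reached a mean of 10 CPM, Ccne2 (-1.34) and Rrm2 (-1.25) had the lowest log2 ratios of 15 h to 0 h. The chromatin gene Uhrf1 was next (-1.21). Other such genes of G1/S control and nucleotide supply were at -0.68 to -0.77, near the member median of -0.66. Ccne1 did not reach a mean of 10 CPM. Ccne1 was at 12.3 (11.0 to 13.7), 10.8 (9.72 to 12.0), 4.68 (3.89 to 5.58) and 7.80 (6.85 to 8.86) CPM at 0, 6, 15 and 24 h. Ccne2 was at 15.8 (14.3 to 17.4), 15.7 (14.4 to 17.1), 6.24 (5.32 to 7.27) and 8.72 (7.70 to 9.83) CPM, and Rrm2 at 55.5 (52.8 to 58.4), 57.3 (54.7 to 59.9), 23.4 (21.6 to 25.3) and 29.8 (27.9 to 31.8) CPM. All 3 were lower at 15 h and at 24 h than at 0 h, and of these Ccne1 was higher at 24 h than at 15 h. E2f1 was at 11.3 (10.1 to 12.6), 12.4 (11.2 to 13.7), 7.05 (6.07 to 8.14) and 11.4 (10.2 to 12.6) CPM, lower at 15 h and back above the 15 h level at 24 h. Tyms was at 66.0, 63.2, 38.7 and 43.2 CPM, lower at both late times.

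Licensing genes varied among themselves. Cdc6 was at 15.9, 21.9, 12.7 and 16.6 CPM and was not counted as changed from 0 h at any time. Cdt1 was at 49.6, 42.3, 31.9 and 38.9 CPM, Mcm5 at 57.3, 62.5, 32.1 and 41.4 CPM and Mcm6 at 78.3, 77.9, 51.6 and 71.3 CPM, each lower at 15 h and not at 24 h. Cdc45, at 16.7, 16.1, 9.67 and 10.6 CPM, was lower at both.

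At the fork, Pole was at 13.9, 17.3, 9.06 and 10.8 CPM and lower at 15 h. Pcna was at 238, 255, 183 and 231 CPM and Rfc1 at 45.95, 49.2, 41.4 and 49.2 CPM, neither counted as changed, nor was Rfc2, at 51.7, 57.1, 49.8 and 45.2 CPM. Fen1, at 39.7, 46.2, 23.7 and 26.8 CPM, was lower at 15 h, while Lig1, at 46.8, 50.2, 31.7 and 38.3 CPM, was not counted as changed from 0 h, though it was lower at 15 h than at 6 h. Pola1 was at 24.8, 25.3, 14.1 and 18.04 CPM. Its counts, like those of Pola2 and Rfc2, came for 69.4% or more from UMIs split between genes in these 4 libraries, so their levels are uncertain.

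Among chromatin genes Uhrf1 was at 56.4 (53.6 to 59.2), 50.0 (47.6 to 52.5), 24.3 (22.4 to 26.3) and 37.6 (35.5 to 39.9) CPM, lower at 15 h, and counted as higher at 24 h than at 15 h. Dnmt1, at 48.3, 45.3, 32.0 and 35.8 CPM, was lower at 15 h, and Chaf1b (15.9, 17.4, 11.0 and 14.7 CPM) and Slbp (76.9, 72.5, 52.7 and 60.9 CPM) were not counted as changed from 0 h. Of the repair genes, Brca1 (8.89, 10.1, 5.70 and 7.54 CPM), Msh6 (52.5, 48.0, 34.6 and 37.9 CPM) and Exo1 (11.0, 13.1, 7.20 and 9.30 CPM) were lower at 15 h only. Brca2 was at 7.58, 9.97, 6.69 and 5.69 CPM and not counted as changed. Fancd2, at 5.63, 7.25, 4.30 and 2.91 CPM, had the lowest ratio of 24 h to 0 h, at levels where few UMIs stand behind each value.

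The share of cells with these transcripts was also lower at the late times. Each cell was thinned to 2000 UMIs, and cells with at least 5 UMIs of the 46 genes were counted, a cut along a range and not a cell type. At 0 h 790 of 2932 cells (26.9%, exact binomial 95% interval 25.3% to 28.6%) reached the cut, and at 6 h 1176 of 4280 (27.5%, 26.1% to 28.8%). At 15 h 416 of 2890 cells (14.4%, 13.1% to 15.7%) and at 24 h 347 of 2218 (15.6%, 14.2% to 17.2%) did so. Cells with 4 or 5 member UMIs, nearest to the cut, numbered 274, 447, 188 and 159. Within the cells at the cut the mean was 9.16, 8.98, 8.64 and 9.01 member UMIs, a value that the cut itself holds up and that does not separate share from level. Without thinning the shares were 55.1%, 56.3%, 48.9% and 62.7%, at median depths of 8201, 6710.5, 7805 and 10441 UMIs.

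As a background chosen after the data were seen, the 5% of cells with most enterocyte-list UMIs held 0 cells at the cut in each of the 4 libraries (0 of 155, 219, 148 and 118 cells, with upper 95% limits of 2.35%, 1.67%, 2.46% and 3.08%). Their median depths were 8091, 6540, 9055 and 16280 UMIs. These cells were not free of member transcripts, since 47.1%, 47.5%, 48.0% and 43.2% of them held no member UMI after thinning. The backgrounds planned at first, enteroendocrine-marker-high and goblet-marker-high cells, did hold cells at the cut. It was reached by 14.3%, 22.2%, 27.3% and 8% of 7, 9, 11 and 25 enteroendocrine-marker-high cells. For goblet-marker-high cells the shares were 27.8%, 40.8%, 33.3% and 32.3% of 36, 49, 30 and 31. Only the enterocyte-high group, chosen after the data were seen, held 0 cells at the cut. For single genes, Rrm2 had a UMI in 6.89% of all cells and 1.29% of the enterocyte-high cells at 0 h, and in 3.46% and 0.676% at 15 h. Pcna was detected in 26.5% of all cells at 15 h and in 27.03% of the enterocyte-high cells, so its share there is at background, as at 24 h (29.4% and 32.2%).

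Cells with member UMIs also held mitosis transcripts more often. At 0 h 32.2% of cells at the cut had at least 5 UMIs of the 18 mitosis genes, against 9.76% of the other cells. At 24 h the shares were 28.0% and 3.74%. Both counts come from the same thinned cells, and the association is a description.

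**Figure D4:**
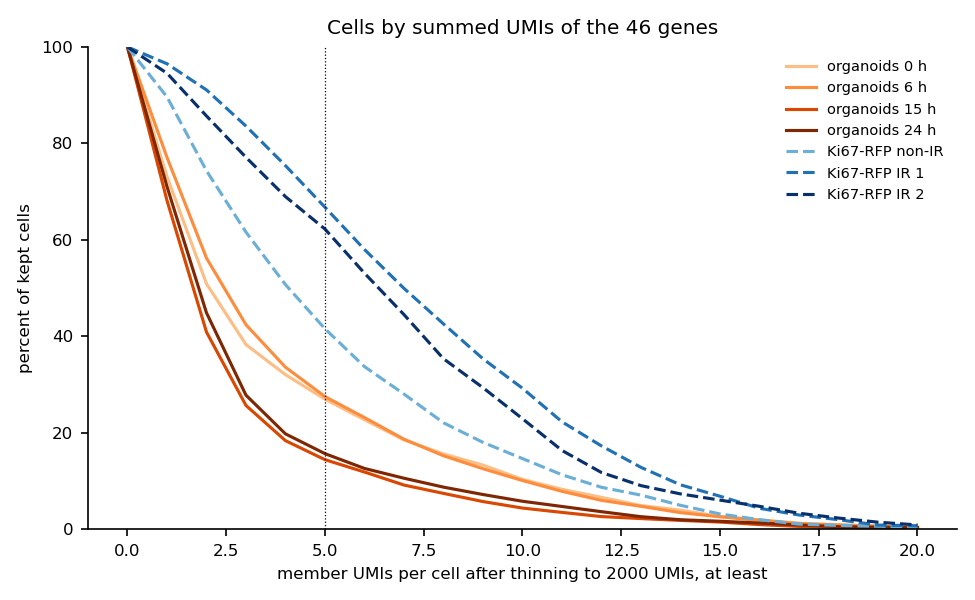
Percent of kept cells with at least the number of member UMIs on the x axis, after thinning each cell to 2000 UMIs, for the 4 organoid libraries (solid) and the 3 Ki67-RFP libraries (dashed); the dotted line marks the cut of 5 UMIs. At the cut the organoid libraries stand at 26.9%, 27.5%, 14.4% and 15.6% at 0, 6, 15 and 24 h, and the Ki67-RFP libraries at 41.5% without and 66.8% and 62.2% after irradiation.

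In Ki67-RFP crypt cells 56 h after 12 Gy, some replication genes were higher than in non-IR cells, most often licensing and helicase genes. The summed level was 2350.0 CPM in the non-IR library and 3843 and 3416 CPM in the IR libraries. By edgeR's quasi-likelihood test on summed UMIs, 14 of the 46 rose and 0 fell at an adjusted p under 0.05 (16.9% of 16397 genes rose and 16.4% fell). An unadjusted p under 0.05 in either direction was reached by 21 of the 46 and by 6966 of the 16397 genes. The median log2 difference was 0.28 against 0.00 for all genes, and 35 of the 46 were above 0. In CPM, 38 were above the non-IR library in both IR libraries (53.1% of all genes) and 5 below it in both (32.7%). Licensing and helicase genes held 7 of the 14 rises and had the highest median of any role with more than 3 genes, at 0.57. With 2 libraries against 1, the fit has 1 residual degree of freedom, and the lone non-IR library was assumed to vary like the IR libraries. DESeq2 called 9 of the 14 and not Ccne1, Cdc6, Exo1, Hells or Mcm10. Over all genes it called 3030 of 30829 in either direction, and the share called higher is not given here.

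Counts of some members rest on UMIs split between genes, which the matrices hold as fractions. Over 50% of the UMIs were of this kind in at least 1 library for Pola1, Pola2, Rfc2, Slbp, Chaf1a and Brca2, and the share was higher in the IR libraries, at 23.4% without and 75.6% and 71.8% after irradiation for Slbp, and at 9.18%, 47.2% and 45.7% for Mcm2. Without these 6 genes 12 of 40 rose, and the summed level was 1986 CPM without and 2931 and 2555 CPM after irradiation. When fractional entries were left out, 11 of the 14 rises remained, and 4 members were called lower: Pola1 (-5.08), Rfc2 (-5.08), Slbp (-1.27) and Brca2 (-1.30). The rises that did not remain were those of Mcm2, Pola1 and Pola2, and the rise of Pola2, 75.8 CPM in the non-IR library and 455 and 467 CPM in the IR libraries, is the largest of the 46 and uncertain for this reason.

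Among licensing genes, Mcm5 was at 67.4 CPM in the non-IR library and 132 and 124 CPM in the IR libraries (0.75 ± 0.15, adjusted p = 0.00149 by edgeR). Mcm3 was at 47.4 CPM in the non-IR library and 97.4 and 92.3 CPM in the IR libraries (0.82 ± 0.15, adjusted p = 6.5e-04 by edgeR). Cdc6 was at 15.7 CPM in the non-IR library and 33.1 and 25.4 CPM in the IR libraries, and Cdt1 at 48.6 CPM in the non-IR library and 83.2 and 88.1 CPM in the IR libraries, both called higher (0.73 ± 0.20, adjusted p = 0.0129 and 0.64 ± 0.14, adjusted p = 0.00352 by edgeR). Mcm4 (0.68) and Mcm10 (0.50) rose as well. Mcm6 was at 101 CPM in the non-IR library and 122 and 97.8 CPM in the IR libraries and Cdc45 at 18.8 CPM in the non-IR library and 27.01 and 22.4 CPM in the IR libraries, neither called. The helicase subunits therefore did not all pass the test.

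Rrm2 rose most among genes with few split UMIs, with 62.1 CPM in the non-IR library and 178 and 159 CPM in the IR libraries (1.26 ± 0.16, adjusted p = 3.5e-05 by edgeR). Tyms stood lowest of the 46, at 137 CPM in the non-IR library and 135 and 113 CPM in the IR libraries, a log2 difference of -0.32 that was not called. Ccne1 was at 12.5 CPM in the non-IR library and 29.2 and 21.8 CPM in the IR libraries (0.86 ± 0.21, adjusted p = 0.00845 by edgeR). Ccne2 was at 22.4 CPM in the non-IR library and 33.9 and 26.6 CPM in the IR libraries and E2f1 at 12.8 CPM in the non-IR library and 15.9 and 16.0 CPM in the IR libraries, neither called.

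At the fork no clamp, loader or lagging-strand gene was called. Pcna was at 239 CPM in the non-IR library and 291 and 244 CPM in the IR libraries, Rfc1 at 62.1 CPM in the non-IR library and 95.5 and 88.1 CPM in the IR libraries, Fen1 at 54.7 CPM in the non-IR library and 76.3 and 67.1 CPM in the IR libraries and Lig1 at 73.6 CPM in the non-IR library and 95.2 and 81.7 CPM in the IR libraries. Pole was at 17.8 CPM in the non-IR library and 23.1 and 21.8 CPM in the IR libraries and Pold1, with a log2 difference of -0.32, at 35.9 CPM in the non-IR library and 34.5 and 30.6 CPM in the IR libraries. Pola1 was at 41.02 CPM in the non-IR library and 101 and 88.4 CPM in the IR libraries. The CPM values are per library total, while the fitted differences use TMM scaling. Scaling by the library total instead would place the median of all genes at 0.18 and call 22 of the 46 higher and 0 lower. Over all genes it would call 5431 of 16397 in either direction. The share of all genes called higher is not given here, so the 22 have no background of their own direction.

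Of the chromatin genes Chaf1b, at 24.0 CPM in the non-IR library and 55.2 and 51.3 CPM in the IR libraries (0.97 ± 0.15, adjusted p = 2.2e-04 by edgeR), and Hells (0.60 ± 0.17, adjusted p = 0.0155 by edgeR) rose. Uhrf1 was at 64.4 CPM in the non-IR library and 99.0 and 86.4 CPM in the IR libraries, Dnmt1 at 51.9 CPM in the non-IR library and 74.1 and 70.1 CPM in the IR libraries and Slbp at 131 CPM in the non-IR library and 182 and 157 CPM in the IR libraries, none called. Among repair genes Exo1 rose, with 10.8 CPM in the non-IR library and 19.3 and 18.8 CPM in the IR libraries (0.64 ± 0.19, adjusted p = 0.02 by edgeR). Brca1 was at 10.4 CPM in the non-IR library and 16.0 and 16.4 CPM in the IR libraries, Msh6 at 36.6 CPM in the non-IR library and 56.0 and 52.7 CPM in the IR libraries and Brca2 at 16.6 CPM in the non-IR library and 15.1 and 15.5 CPM in the IR libraries, none called.

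**Figure D5:**
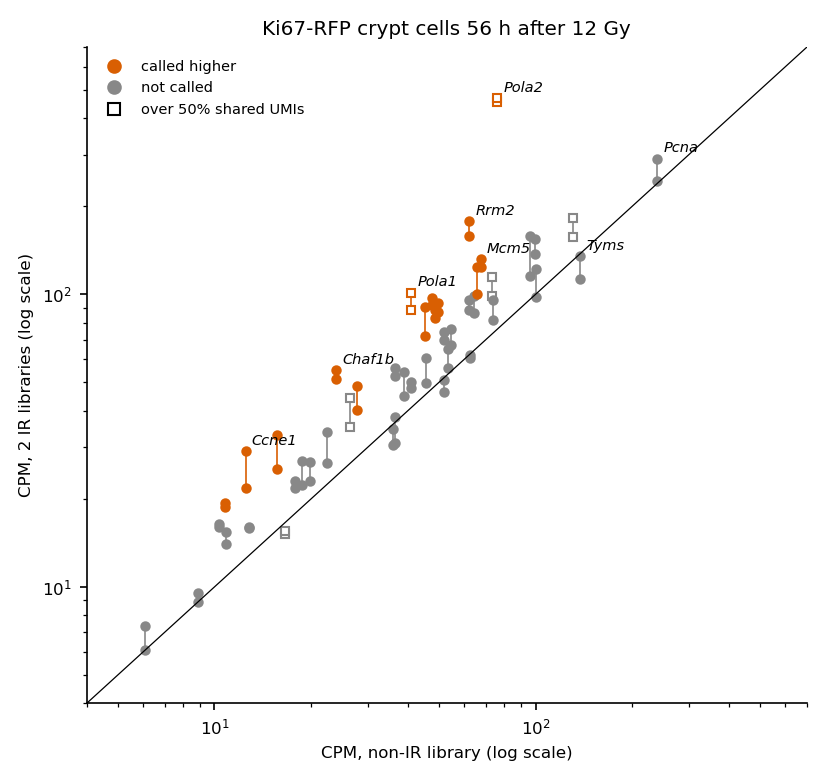
CPM of each of the 46 genes in the non-IR library (x axis, log scale) against the 2 IR libraries (y axis, log scale; joined points), with equality as a diagonal; orange genes were called higher and open squares have over 50% of their UMIs split between genes. Rrm2 lies at 62.1 CPM without and at 178 and 159 CPM after irradiation, and Pola2, an open square, lies highest at 455 and 467 CPM.

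Of the mitosis genes in these sorted cells, 0 of 18 rose and 3 fell, with a median of -0.19, and they summed to 1707 CPM without and 1716 and 1520.4 CPM after irradiation. Of 43 other replication genes 5 rose and 5 fell (median 0.15), and of 18 other repair genes 2 rose and 1 fell (median 0.02). Among all genes tested 16.9% rose and 16.4% fell. Differentiation markers differed as well. Paneth list genes summed to 2418 CPM without and 651 and 808 CPM after irradiation, stem list genes to 1788 and to 863 and 413 CPM (2 of 4 fell, median -0.92), enterocyte list genes to 2729.8 and to 565 and 1682 CPM, and immune list genes to 2.86 and to 6.80 and 4.78 CPM. Their part in the result was not tested.

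Cells at the cut of 5 member UMIs made up 767 of 1846 non-IR cells (41.5%, 39.3% to 43.8%), and 480 of 719 (66.8%, 63.2% to 70.2%) and 435 of 699 IR cells (62.2%, 58.5% to 65.8%), with means of 8.79, 9.43 and 9.01 member UMIs in those cells. Without the 6 genes with split UMIs the shares were 36.0%, 50.9% and 46.6%. Without thinning they were 88.9%, 97.5% and 94.0%, at median depths of 11968, 14399 and 13500 UMIs. The enterocyte-high reference held 0 of 94 non-IR cells and 0 of 36 cells of the second IR library at the cut. In the first IR library its 54 cells had a median of 4 enterocyte UMIs and 29.6% reached the cut, so it gives no background there. Of 58, 23 and 16 goblet-marker-high cells 31.0%, 73.9% and 56.3% reached the cut, and enteroendocrine-marker-high cells numbered only 2, 3 and 2. Rrm2 had a UMI in 8.99% of non-IR cells and in 23.6% and 21.7% of IR cells.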

How the data were processed

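Organoid RNA was measured by bulk RNA-seq (18 libraries) and single-cell RNA-seq (4 libraries), and sorted crypt cells by single-cell RNA-seq (3 libraries). The deposited bulk tables hold FPKM in 3 tables, and the submitters' processing notes name TopHat2 2.1.0, Cuffnorm and Cuffdiff 2.2.1. The deposited single-cell matrices hold estimated counts of UMIs, in part fractional because UMIs that match several genes were split, and the notes name STARsolo (STAR 2.7.10a). The deposited ATAC-seq peak lists hold −log10 p and q values and signal over peaks, and were not used, since their coordinates reach 197175936 on chromosome 1 and could not be matched to the promoter table's build.

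FPKM were tested with limma 3.58.1 (R 4.3.3; trend and robust options) on log2(FPKM + 1) for genes averaging 1 FPKM or more, separately for each table, and the interactions over 12 libraries each. Cells were kept from 500 UMIs and 250 genes upwards if no more than 20% of their UMIs were mitochondrial, and no doublet caller was run. UMIs summed per library were rounded and tested with edgeR 4.0.16 (quasi-likelihood, TMM), Ki67-RFP libraries only, with DESeq2 1.42.0 as an alternative. Adjusted p-values are Benjamini-Hochberg over all genes tested, with a threshold of 0.05. Python 3.11.15 with scipy 1.17.1 gave exact intervals at 95%, which cover counting error only. The limma fits of D7 non-IR and D11 IR organoids, the irradiation interaction and the edgeR test were tried on simulated data with known changes. The D7 IR fit, the day interaction and DESeq2 were not. Totals per library give the depth in the single-cell data, while the bulk tables hold no counts.

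The 46 members and all gene lists were chosen with earlier results of these data known. Full values are given for a panel of 1 to 3 members (4 for licensing) of each role, the 3 highest and 3 lowest members of each comparison and any member called against the majority, and the others by counts or ranges. Alternatives left out single libraries, changed pseudocounts, filters, scaling, thresholds and the cell cut. Setting aside members with over 50% split UMIs, and the use of enterocyte-high cells as a background, were chosen after the data were seen.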

Additional observations from a re-analysis of the deposited data

Results flagged for a closer look

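The response to TGFB1 differed between irradiated and non-irradiated D7 organoids for 46 of the 46 genes by limma's interaction term over 12 libraries, each lower in irradiated organoids. Ccne1 (-1.37 ± 0.08, adjusted p = 1.0e-08), Rrm2 (-1.31 ± 0.12), Tyms (-1.27 ± 0.12), Cdc6 (-1.17 ± 0.11) and Pcna (-0.91 ± 0.07, adjusted p = 7.1e-08) had log2 terms near or beyond -0.91. Cdc6 and Pcna were called higher without irradiation and lower with it. Brca1 (-0.48 ± 0.09), Fancd2 (-0.45 ± 0.11) and Rfc3 (-0.42 ± 0.11, adjusted p = 0.00697) had the smallest terms on the log2(FPKM + 1) scale, whereas with a pseudocount of 0.1 the Fancd2 term was -1.12.

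Between D11 and D7 irradiated organoids the response differed for 45 genes by the same kind of test, each higher at D11. The 6 genes with a called D7 fall and a called D11 rise were Pcna (0.70 ± 0.09), Fen1 (1.76 ± 0.13), Tyms (1.805 ± 0.11), Rrm1 (1.90 ± 0.16), Ccne2 (2.34 ± 0.19) and Ccne1 (2.68 ± 0.13, adjusted p = 2.1e-09). Rrm2 (2.07 ± 0.15) also had a large term, without a called D11 difference. Cdt1 (0.33 ± 0.11, adjusted p = 0.0141) and Brca2 (0.41 ± 0.16, adjusted p = 0.0347) had the smallest called terms on that scale, and with a pseudocount of 0.1 the Brca2 term was 0.92. The D7 irradiated libraries enter both tests.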

How the results depend on the processing

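Of 2325 values of named genes under alternatives, 2204 were counted as the same, 97 lost the call and 21 gained one. A further 3 changed sign with a call before or after the change. The 3, with fractional UMI entries left out in Ki67-RFP cells, were Mcm2 (-0.019), Pola1 (-5.08) and Slbp (-1.27), and 4 members were then called lower. A sign change between uncalled values, as for Mcm6 in that setting (-0.044 to 0.034), was counted as the same. So were all values of Ki67-RFP cells with an IR library left out, which had no test. In Ki67-RFP cells DESeq2 called 9 members higher and scaling by library size 22 (3030 of 30829 and 5431 of 16397 genes in either direction). The shares of all genes called higher in these settings are not given. A 2-fold minimum left 0 higher and 0 lower in D7 non-IR organoids, 1 and 1 at D11, 16 for the irradiation term and 26 for the day term. A single fit of all 18 libraries called 1 higher in D7 non-IR organoids and 11 higher at D11, with no share of all genes given beside them. Leaving out 1 library gave 36 to 39 lower and 2 higher in D7 non-IR, 46 lower in D7 IR, 14 to 22 lower and 5 to 9 higher at D11, 46 for the irradiation term and 43 to 46 for the day term. In Ki67-RFP cells, leaving out an IR library left no residual spread and hence no test, with 33 or 39 members above 0. With the replicate block, counts were 2 higher and 38 lower in D7 non-IR, 46 lower in D7 IR, 6 higher and 18 lower at D11, 46 for the irradiation term and 44 for the day term. No share of all genes is given beside the counts with 1 bulk library left out or with the replicate block. Same-numbered libraries correlated at -0.09 to 0.21 in their deviations, which does not settle whether the numbers pair them. Without fractional entries the time course had 2 members higher at 6 h, 1 higher at 15 h and 3 lower at 24 h than at 15 h, again with no share of all genes given. Without the 6 members with split UMIs, 30 were lower at 15 h and 13 at 24 h. For the share of cells, the values follow in the order 0, 6, 15 and 24 h, then Ki67-RFP non-IR and both IR libraries. At 3 member UMIs they were 38.3%, 42.4%, 25.6%, 27.8%, 61.6%, 83.6% and 77.1%. At 10 they were 10.3%, 10.1%, 4.36%, 5.77%, 14.6%, 29.2% and 22.9%. Thinned to 1000 UMIs they were 11.5%, 13.0%, 5.36%, 6.63%, 17.3%, 33.2% and 26.6%. Without the 6 members with split UMIs they were 24.1%, 24.6%, 12.7%, 13.4%, 36.0%, 50.9% and 46.6%. With at most 10% mitochondrial UMIs the 6 h share was 29.7%. Chromatin accessibility at member promoters was not run under any setting. The causes of these differences were not tested. Single libraries per time and 1 non-IR Ki67-RFP library limit the single-cell results, and 6 members under 10 CPM rest on few UMIs.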

Other observations

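Promoters with E2F-type letters and those without them were set side by side. In D7 IR organoids the 15 members with such letters had a median log2 difference of -1.37 and the 23 without a median of -1.32. In D7 non-IR organoids the medians were -0.41 and -0.36, and at D11 -0.28 and -0.07. No test was made of these differences.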
